A study of Homo sapiens with 2 samples.

Results

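The PML-RARA antibody signal of NB4 cells was listed in 20085 peaks, and 425 of the 20072 on chromosomes 1 to 22 and X (2.12%) were broad, with a length of 4 kb or more. NB4, an established human cell line of acute promyelocytic leukemia, carries PML-RARA, the fusion of the nuclear body protein PML with the retinoic acid receptor alpha, RARA. The cells had no stated treatment, and CUT&Tag, in which an antibody brings a transposase to the chromatin it marks, was done with a PML-RARA antibody in 2 replicates. The data analysed here are 1 peak list merged from both replicates, with no control antibody, no second group and no value per replicate, so neither a spread between replicates nor a test between groups can be given. Length chose the broad peaks, and the total and maximum signal of a peak come from the same track, so their values describe the broad peaks and test nothing. The sequencing depth is unknown. Intervals given for shares are 95% Wilson intervals, which treat peaks as independent although neighbouring peaks are not.

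PML-RARA binds DNA as oligomers and with the partner receptor RXR, and it recruits co-repressors to genes of myeloid differentiation. The normal receptor, RARA with RXR, recognises repeats of a short hexamer. Wide domains of a chromatin signal often lie over genes that mark the identity of a cell, and in promyelocytes these include genes of granule proteins, of myeloid transcription factors such as PU.1 and C/EBP epsilon, and of leukocyte signalling.

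Positions are on hg19 as the list gives them. A sample of 427 genes with hg19 transcription start sites (TSSs) allowed measured links between peaks and genes; part of the sample comes from a table that does not name its build and was read as hg19. All other gene names at a position come from general knowledge of the hg19 gene map: they name the locus that holds the peak, the distance to the gene was not measured, and they were chosen after the values were seen. Further broad peaks than those named can lie at the same gene. Of 85 such pairs of a gene and a broad peak, 81 had the same cytogenetic band for the gene on GRCh38 and for the peak on hg19, and none of 63 neighbouring pairs stood in the other order along its chromosome. The exceptions by band were LYL1, IER2 and JUNB, in 19p13.2 for the peak and 19p13.13 for the gene, and FGR, in 1p36.11 and 1p35.3.

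Sequences are shown for loci that recur in the results below. The second longest broad peak held the locus of MIR142, a microRNA of blood cells, whose mature forms are printed from RefSeq with the seed, bases 2 to 8, in capitals.
hsa-miR-142-3p: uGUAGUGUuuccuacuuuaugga
hsa-miR-142-5p: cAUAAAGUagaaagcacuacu

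For 4 genes the 250 bases before the RefSeq start (GRCh38.p14, on the gene's strand) are printed. ADAM8 and GAPDH had a measured TSS inside a broad peak, CEBPE encodes C/EBP epsilon, and CDKN2D lay at the broad peak with the highest mean signal. Capitals mark GAGGAA or its reverse complement, a motif with the core of PU.1 sites.
ADAM8 promoter: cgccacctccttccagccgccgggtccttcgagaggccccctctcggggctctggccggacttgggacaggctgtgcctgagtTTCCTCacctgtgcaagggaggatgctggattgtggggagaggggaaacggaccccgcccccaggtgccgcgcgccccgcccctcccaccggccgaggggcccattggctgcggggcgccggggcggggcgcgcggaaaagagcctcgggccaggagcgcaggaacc
GAPDH promoter: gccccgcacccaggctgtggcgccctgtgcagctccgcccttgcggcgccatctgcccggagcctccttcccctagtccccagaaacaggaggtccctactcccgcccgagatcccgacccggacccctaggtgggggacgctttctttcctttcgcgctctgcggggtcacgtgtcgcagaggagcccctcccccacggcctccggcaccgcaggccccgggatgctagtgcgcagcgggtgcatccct
CEBPE promoter: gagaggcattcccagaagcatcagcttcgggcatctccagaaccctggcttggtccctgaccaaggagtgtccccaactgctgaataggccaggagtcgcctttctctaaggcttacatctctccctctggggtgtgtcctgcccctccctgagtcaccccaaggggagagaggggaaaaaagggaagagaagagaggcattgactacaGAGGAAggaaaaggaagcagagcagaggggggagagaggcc
CDKN2D promoter: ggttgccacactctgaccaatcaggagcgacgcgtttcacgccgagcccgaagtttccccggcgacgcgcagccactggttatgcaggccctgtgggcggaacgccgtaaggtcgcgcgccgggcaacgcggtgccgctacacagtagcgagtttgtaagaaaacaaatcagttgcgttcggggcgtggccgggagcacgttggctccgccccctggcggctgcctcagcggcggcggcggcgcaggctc

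GAGGAA occurred on the minus strand of the ADAM8 promoter, at bases 84 to 89 of the printed run, and on the plus strand of the CEBPE promoter, at bases 210 to 215. Neither the GAPDH nor the CDKN2D promoter held it. The hexamer AGGTCA, its direct repeats with 2 or 5 bases of any kind between the copies, and TGTGGT, the core of RUNX sites, were searched on both strands too and were in none of the 4 runs; both repeats contain the hexamer. Among genes at broad peaks with promoters searched and not printed, 1 of 2 FKBP5 promoters held TGTGGT at 2 places and GAGGAA at 2. Of 7 CXXC5 promoters, 1 held AGGTCA and 3 held GAGGAA. The latter motif was also in 1 of 2 RELT promoters and in that of CSK, and DYNLT4 had none of the motifs. Among all 35116 promoters of the same length, 23.6% held GAGGAA, 12.1% AGGTCA, 11.0% TGTGGT and 0.00285% each repeat. ADAM8 and GAPDH had a GC content of 73.6% and 71.2% with 23 and 22 CpG dinucleotides, CDKN2D had 67.6% with 33 and CEBPE 57.2% with 2, beside medians of 58% and 11 over all promoters.

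The 425 broad peaks covered 2461.532 kb, which was 10.4% of the bases in peaks, and held 17.3% of the summed signal. Their median length was 5238 bp (interquartile range 4614 to 6478 bp) and reached 20718 bp. Most, 282, were under 6 kb long. Of the 425, 245 were at least 5 kb long, 143 at least 6 kb, 40 at least 8 kb and 10 at least 10 kb. The shortest broad peaks, of 4000, 4002 and 4024 bp, lay at chromosome 3, 195894725 to 195898725 (total signal 30983), at chromosome X, 153234427 to 153238429 (total 73940), and at chromosome 5, 133859769 to 133863793 (total 56704). Just outside were peaks of 3995, 3995 and 3989 bp at chromosome 10, 81202906 to 81206901 (total 184153), at chromosome 17, 72731824 to 72735819 (total 133665), and at chromosome 2, 127842056 to 127846045 (total 47982). The limit therefore leaves out peaks that hold more signal than many broad ones.

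Total signal is the coverage summed over the bases of a peak, as the authors' list gives it. Its median was 86124 in broad peaks (interquartile range 59223 to 140555) and 6308 in the 19647 shorter ones. The maximum had a median of 98 in broad peaks (60 to 165) and 21 in shorter ones. The mean signal per base, the total divided by the length, had a median of 16.3 (11.6 to 22.8) in broad peaks and 7.44 (5.41 to 11.1) in shorter ones. Broad peaks were thus on the whole long and high. Every listed peak had a total of at least 2577, which asks for a mean of 2.58 over 1000 bp and of 0.644 over 4000 bp, so the list holds short peaks only where their mean is higher. By length, the median mean signal was 6.53 in the 11647 peaks under 1 kb, 9.06 in the 6222 of 1 to 2 kb and 12.004 in the 1778 of 2 to 4 kb. It was 14.8 in the 282 broad peaks of 4 to 6 kb, 18.4 in the 103 of 6 to 8 kb and 24.2 in the 40 of 8 kb or more.

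The ratio of maximum to mean had a median of 5.92 in broad peaks and 2.88 in shorter ones. Its median was higher in each longer class, from 2.62 under 1 kb to 7.74 at 8 kb or more. The ratio thus went with length, which chose the broad peaks, and a maximum over more bases tends to be larger. Across the 425 broad peaks Spearman's rho of length with mean signal was 0.257, with maximum 0.315 and with total 0.575, where the total contains the length and all points share 1 track. Broad peaks took all of the 10 highest totals of the list on the chromosomes and 88 of the 100 highest. Of the 100 highest maxima they took 44, and of the 100 highest means 10. Some were long and low: 26 (6.12%) had a mean no higher than the median of shorter peaks, and 9 had a maximum no higher than that median.

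**Figure D1:**
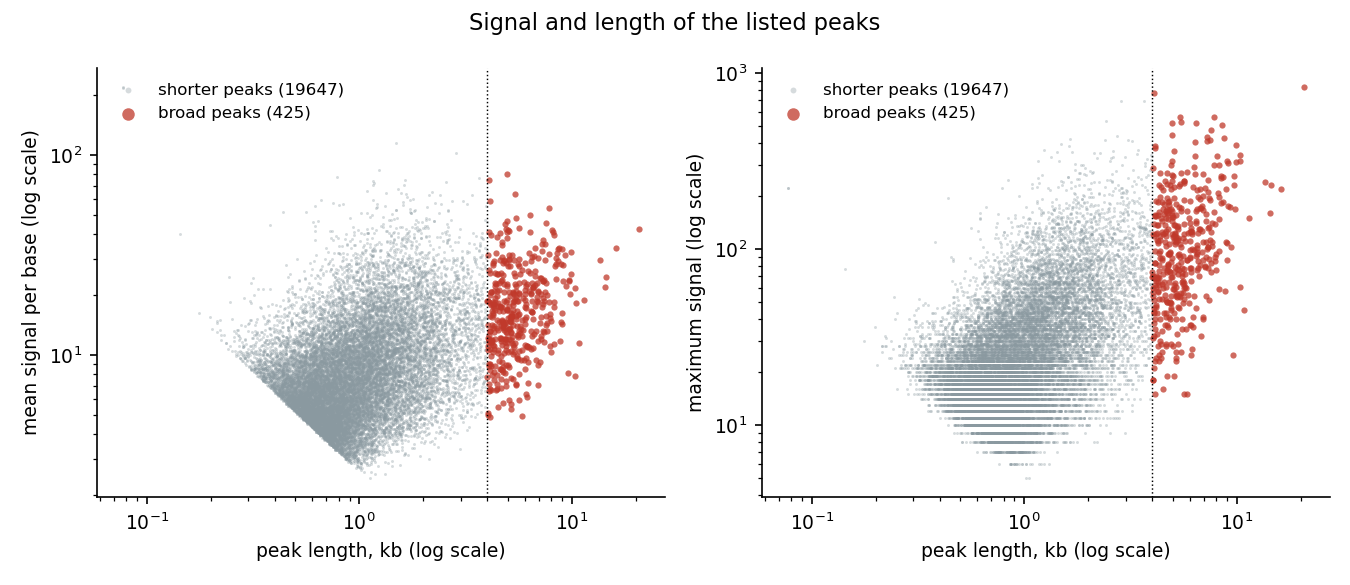
Mean signal per base and maximum signal of each listed peak against its length, all axes on a log scale; red points are the 425 broad peaks, grey points the 19647 shorter ones, and the dotted line stands at 4 kb. Broad peaks lie mostly in the upper part of both panels (median mean 16.3 and median maximum 98), while the highest means, up to 218, belong to shorter peaks.

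The 10 longest broad peaks were led by the locus of PRAM1, an adaptor protein of myeloid cells whose expression PML-RARA is known to repress. This peak, at chromosome 19, 8553961 to 8574679, was 20718 bp long and had a total of 876984, a maximum of 830 and a mean of 42.3. Just before it on the chromosome, at 8549738 to 8553836, a broad peak of 4098 bp reached a maximum of 773 and a mean of 75.1. The next, at 8575201 to 8585121, at ZNF414, a zinc finger protein gene, was 9920 bp long with a maximum of 391. These 3 formed an almost closed stretch, of 35383 bp, with 98.2% of its bases in broad peaks and a total of 1509902.

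The other 9 of the 10 longest had lower means than the one at PRAM1. At chromosome 17, 56401454 to 56417675, the peak at MIR142 and TSPOAP1 was 16221 bp long with a mean of 34.1 and a maximum of 220. At chromosome 1, 26604268 to 26618840, the peak at SH3BGRL3 and UBXN11 was 14572 bp long with a mean of 24.6. At ICAM4 and ICAM5, genes of cell adhesion molecules, chromosome 19, 10392738 to 10407083, the length was 14345 bp and the mean 21.8. CXXC5, a zinc finger gene of retinoid and myeloid biology, had a broad peak of 13622 bp at chromosome 5, 139037929 to 139051551, with a mean of 29.9, and another, of 4303 bp with a mean of 11.1, at 139026298 to 139030601. LFNG, a modifier of Notch receptors, had 11421 bp at chromosome 7, 2559772 to 2571193, with a mean of 18.7. PLEC, a cytoskeletal linker gene, had 10771 bp at chromosome 8, 145010136 to 145020907, with a mean of 11.5. SKI, a co-repressor of TGF-beta signalling, had 10418 bp at chromosome 1, 2160148 to 2170566, with a mean of 18.1. TBC1D10C, a regulator of small GTPases in leukocytes, had 10373 bp at chromosome 11, 67170816 to 67181189, with a mean of 7.83. ZMIZ1, a transcriptional co-activator, had 10342 bp at chromosome 10, 81040709 to 81051051, with a mean of 21.7. Great length thus went with very unequal signal, and the peak at TBC1D10C had a maximum of 61, below the median of broad peaks.

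Several named broad peaks lay at loci of transcription factors, and these loci were chosen after the values were seen. Of 29 listed myeloid and hematopoietic factors in the bands used, 13 (44.8%) shared a band with a broad peak, beside 41.3% of protein-coding genes in those bands. LYL1 was listed but lay outside the bands used, so it was not counted. These shares were close. CEBPE, which drives the late steps of granulocyte maturation, had a peak of 9010 bp at chromosome 14, 23581480 to 23590490, with a total of 305394 and a maximum of 314. LYL1, a helix-loop-helix factor of blood progenitors, had one of 8420 bp at chromosome 19, 13208283 to 13216703, with a maximum of 253. CBFA2T3, a co-repressor of the ETO family, had 7337 bp at chromosome 16, 89039087 to 89046424, with a total of 274168. Of the factor peaks given in this paragraph, only that of MYC had a total below the median of broad peaks, 86124. GFI1, a repressor needed for neutrophil formation, had 5362 bp at chromosome 1, 92947737 to 92953099, with a total of 108059. SPI1, the gene of PU.1, had a broad peak of 5511 bp in its neighbourhood, at chromosome 11, 47412330 to 47417841, with a total of 102834. MYC, the proliferation factor, had 5460 bp at chromosome 8, 128746067 to 128751527, with a total of 82396. NFE2, a factor of the erythroid and megakaryocyte lineages, had 5085 bp with a total of 88917 at chromosome 12, 54691494 to 54696579.

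Some immediate early and AP-1 genes, which respond rapidly to stimuli, had broad peaks. Their totals were 231560 at IER2 (8297 bp), 140835 at JUNB (4780 bp) and 81508 at JUND (4713 bp). Others of this kind did not: the band of EGR2 held 0 broad peaks, and the 2 in the band of EGR1 lay at CXXC5. IRF5, an interferon regulatory factor of myeloid cells, had 4702 bp with a total of 167301, and BHLHE40, a stress and clock-linked repressor, 4099 bp with 167666. DBP, a clock-controlled factor, had 7854 bp at chromosome 19, 49135604 to 49143458, with a total of 426858 and a maximum of 565. KMT2A, a histone methyltransferase gene rearranged in other leukemias, had 4150 bp with a total of 49398. Its nearest other peak stood 91248 bp away.

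RARA and RXRA, whose receptors bind together, had broad peaks. Of the other listed receptor genes of these families, RARB and RXRG had 0 in their bands. No broad peak was assigned to RARG or RXRB, whose bands held 3 and 1. RARA, itself a partner of the fusion, had a peak of 5185 bp at chromosome 17, 38476060 to 38481245, with a total of 75785, a maximum of 117 and a mean of 14.6, close to the medians of broad peaks. RXRA had 2: at chromosome 9, 137261082 to 137267806 (6724 bp, mean 17.5), and at 137292931 to 137297989 (5058 bp, mean 8.69). No broad peak was assigned to PML, although its band, 15q24.1, had 3. Of these, 2 lay at CSK, a kinase that restrains Src family kinases, at chromosome 15, 75068971 to 75078334 (mean 22.1) and 75078571 to 75083328 (mean 28.7).

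Effector genes of granulocytes were present with mostly moderate values. MPO, the gene of myeloperoxidase, the main enzyme of primary granules, had 2 broad peaks, at chromosome 17, 56341764 to 56349663 (7899 bp, mean 16.0) and 56354805 to 56360092 (5287 bp, mean 16.7). RAC2, a GTPase of the phagocyte NADPH oxidase, had 2, at chromosome 22, 37636810 to 37641715 (4905 bp, mean 42.7), and at 37624951 to 37629120 (4169 bp, mean 8.83). ITGB2, the common chain of the leukocyte integrins, had 4055 bp with a mean of 18.6, and FERMT3, which activates integrins, 4535 bp with a mean of 16.5. SPN, a sialoprotein of the leukocyte surface, had 6705 bp with a mean of 26.4. Receptor genes included CSF1R, of the macrophage growth factor (5286 bp, mean 18.4), and TNFRSF1A, of tumor necrosis factor (7492 bp, mean 20.5). Most of these means were close to the median of broad peaks, 16.3. The peak of SPN and 1 peak of RAC2 were above the upper quartile, 22.8, and the other peak of RAC2 was below the lower quartile, 11.6.

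Other named broad peaks lay at genes of leukocyte signalling. SH2B3, an inhibitor of cytokine receptor signalling, had 8595 bp with a mean of 33.6, and PRKCD, a protein kinase C gene, 8873 bp with a mean of 28.5. TRIM8, a ubiquitin ligase gene, reached a maximum of 473 and a mean of 45.7 over 7606 bp. RASGRP2, an activator of Rap GTPases, had a mean of 42.9 over 5625 bp, and CYTH4, an exchange factor of ARF GTPases, 23.3 over 9701 bp. PTPN6, a phosphatase that dampens receptor signals in blood cells, had 2 broad peaks with means of 15.8 and 13.6, and PTPN7 had 1 of 7165 bp with a mean of 11.9. The phosphatase loci were the lowest of these.

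Among cell cycle and survival genes, CDKN2D, an inhibitor of CDK4 and CDK6, had the highest mean signal of all broad peaks. Its peak, at chromosome 19, 10675743 to 10680720, was 4977 bp long with a total of 398272, a maximum of 520 and a mean of 80.0. CCND3, a D-type cyclin gene, had 8069 bp at chromosome 6, 41902115 to 41910184, with a mean of 41.9. BBC3, a death-promoting gene of the BCL2 family, had 6658 bp with a mean of 31.3. Housekeeping genes had broad peaks as well: ACTB, the gene of beta-actin, had 6017 bp with a mean of 20.0. Broad peaks were therefore not limited to genes of the myeloid lineage.

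The 10 highest maxima among broad peaks ran from 446 to 830. Below the pair next to each other at PRAM1 came DBP with 565 and STX1A, a syntaxin gene, with 564 (chromosome 7, 73129273 to 73134701). A peak at chromosome 5, 959809 to 965285, reached 527, CDKN2D 520, and a peak at chromosome 15, 70782640 to 70789052, 519. The other 3 reached 506 (chromosome 2, 232529404 to 232537891), 473 (TRIM8) and 446 (chromosome 7, 72997710 to 73002686). The longest peak, at PRAM1, and those on chromosome 15 and chromosome 2 had high summits on a lower base, with a maximum 19.6, 17.5 and 15.7 times their mean. The 5 highest means were 80.0 at CDKN2D, 75.1 beside PRAM1, 63.8 at STX1A, 58.9 at chromosome 17, 66339650 to 66343791, and 54.3 at DBP.

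The 5 lowest means belonged to flat peaks. They were 4.87 at chromosome 3, 52262538 to 52266650 (maximum 15), 4.92 at chromosome 7, 1505327 to 1511137 (maximum 15), and 4.99 at chromosome 2, 232394976 to 232399012 (maximum 18). The remaining ones were 5.13 at chromosome 7, 73123115 to 73127145 (maximum 18), and 5.35 at chromosome 19, 49173778 to 49178952 (maximum 26). The flat peak that starts at 73123115 precedes the one at STX1A on the chromosome, so a very low and a very high broad peak were close neighbours.

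Broad peaks were rarely alone. Another listed peak lay within 10 kb of 401 of them (94.4%, 91.7 to 96.2%), and of 60.7% of shorter peaks (59.97 to 61.33%). Within 1 kb the shares were 61.6% (56.9 to 66.1%) and 24.7% (24.1 to 25.3%), and the median gap was 663 bp against 5091 bp. The share with a neighbour within 10 kb was higher in each longer class, from 55.9% under 1 kb to 81.0% at 2 to 4 kb and 97.5% at 8 kb or more. Peaks flanked 276 broad peaks (64.9%) on both sides within 10 kb, and 25.9% of shorter ones. A single broad peak had no other peak within 100 kb, at chromosome 2, 71678387 to 71683911, with a gap of 131727 bp. No neighbouring peaks stood closer than 106 bp, and how the list was split into peaks is not given in the sources used here. Pieces of 1 stretch listed apart and separate sites cannot be told apart in such gaps.

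**Figure D2:**
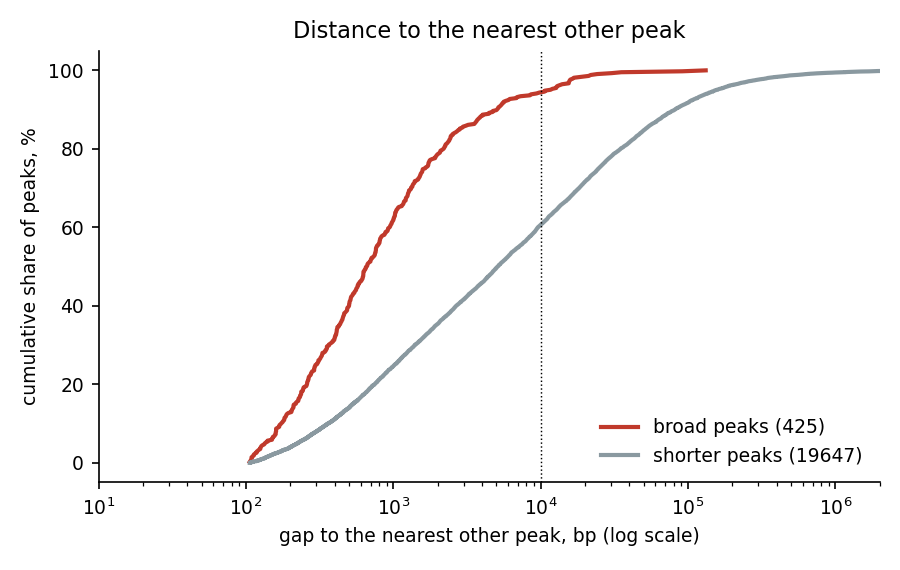
Cumulative share of peaks, in percent, against the gap to the nearest other peak in bp on a log scale, in red for broad and in grey for shorter peaks; the dotted line stands at 10 kb. At 10 kb the red curve has reached 94.4% and the grey one 60.7%.

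Some broad peaks followed each other directly. With gaps of at most 1 kb, 56 broad peaks (13.2%) formed 25 stretches of 2 to 4, and with gaps of at most 10 kb, 131 (30.8%) formed 59. The locus of SH3BP2, an adaptor of immune receptors, held 4 broad peaks from 2787843 to 2817581 on chromosome 4, with 94.0% of the stretch inside them. Their means, 12.997, 18.4, 9.60 and 21.9 in order along the chromosome, alternated, and 1 more broad peak of this locus stood at 2832574 to 2840245. GRK2, a kinase of G protein-coupled receptors, held 4 from 67034216 to 67058359 on chromosome 11, with 95.6% of the stretch inside them. There the means were 19.8, 29.6, 7.60 and 25.7, and the third of them was flat, with a maximum of 29. The stretch that ends at LFNG held 3, from 2547512 to 2571193 on chromosome 7. MYO1F, a myosin gene of leukocytes in the same band as PRAM1, held 2, with means of 35.7 and 27.9.

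**Figure D3:**
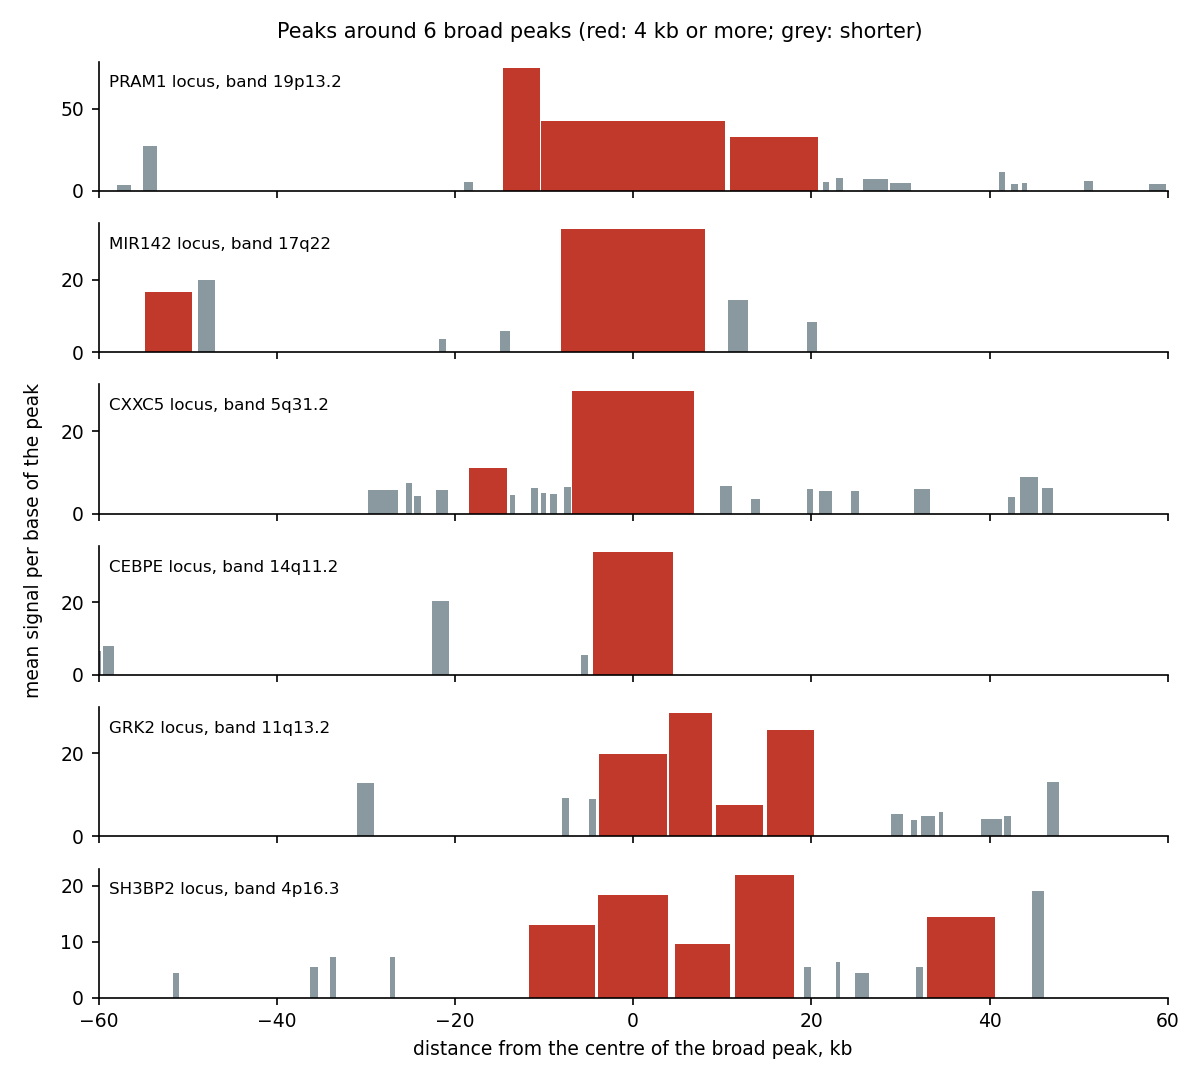
Mean signal per base of each listed peak within 60 kb of the centre of a broad peak at 6 loci, drawn at its own width against the distance from that centre in kb; red bars are broad peaks, grey bars shorter ones, and each panel has its own vertical scale. Broad peaks stand end to end at PRAM1, SH3BP2 and GRK2, and the one at CEBPE is the only broad peak of its panel.

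When peaks with gaps of at most 500 bp were joined, 639 stretches reached 4 kb, of which 384 consisted of more than 1 listed peak. The longest then lay at GRK2, at chromosome 11, 67033039 to 67058359, with 25320 bp in 5 pieces. The stretch at PRAM1 measured 24941 bp in 2 pieces at that gap and 38131 bp in 5 pieces when gaps of up to 1 kb were joined. The locus that counts as the longest therefore depends on the gap that is bridged.

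Chromosomes 19 and 11 held the most broad peaks, 53 and 47. These were 3.31% (2.54 to 4.31%) of the peaks on chromosome 19 and 3.68% (2.78 to 4.86%) of those on chromosome 11. The share was 1.38% (0.931 to 2.05%) on chromosome 1, with 24 broad peaks, and 1.10% (0.600 to 2.02%) on chromosome 6, with 10. Broad peaks clustered: 19p13.2 held 23 of those on chromosome 19, and 11q13.1 and 11q13.2 held 16 and 11 on chromosome 11. The intervals treat peaks as independent, and a difference between chromosomes was not tested. Chromosomes 13 and 18 had 2 each and chromosomes 8, 21 and X 5 each, where the intervals are wide. Per 100 protein-coding genes of the GRCh38 table, chromosome 20 had 4.10 broad peaks, chromosome 19 had 3.65, chromosome 11 had 3.61 and chromosome X 0.590. The longest broad peak of each chromosome ranged from 4827 bp on chromosome 13 to 20718 bp on chromosome 19. Chromosome 19 held 12.5% of the broad peaks and 16.3% of their summed signal.

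**Figure D4:**
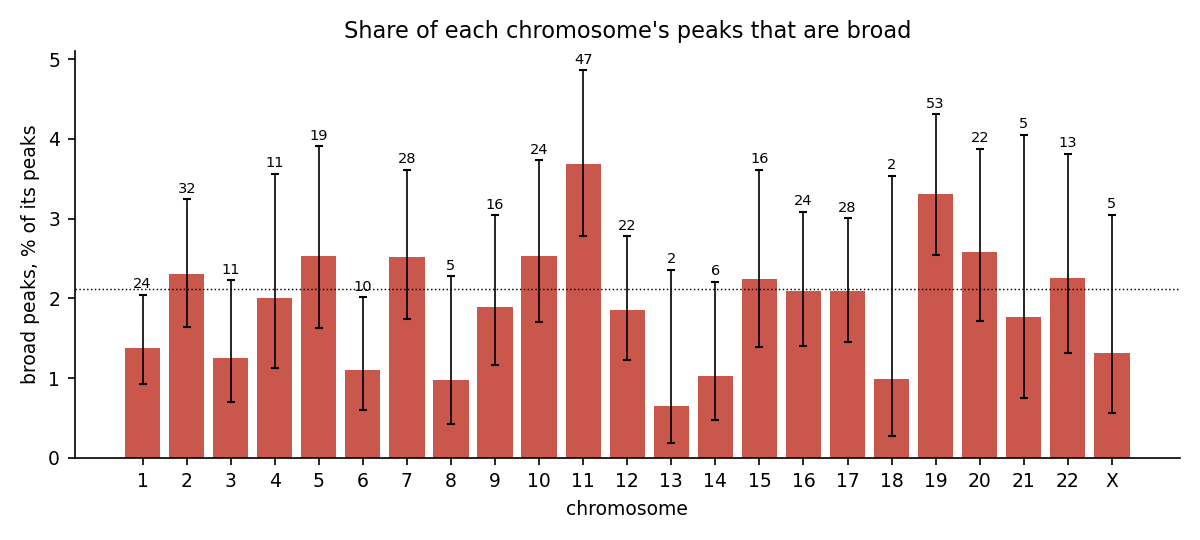
Broad peaks as a percentage of the listed peaks of each chromosome, with 95% Wilson intervals as error bars, the number of broad peaks above each point and a dotted line at 2.12%, the share over all chromosomes. Chromosomes 11 (3.68%) and 19 (3.31%) stand above the line with their whole interval, and chromosomes 1 and 6 below it. The intervals treat peaks as independent although broad peaks cluster in few bands.

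Within chromosomes, broad peaks were concentrated in few bands. Only 149 of 784 bands held one, and the 29 bands with at least 5 held 209 of them (49.2%) but 21.3% of all peaks; these bands were chosen by their count of broad peaks, so the share is a description. Band 19p13.2 had 23, 11q13.1 had 16, 11q13.2 had 11 and 20q13.33 had 10. In 15q24.2, 7 of 63 peaks (11.1%) were broad. Pale bands, Giemsa-negative or of the palest positive class, held 396 broad peaks (93.2%, 90.4 to 95.2%) and 83.2% of shorter ones (82.7 to 83.8%). For Giemsa-negative bands alone the shares were 74.4% (70.0 to 78.3%) and 69.9% (69.2 to 70.5%), and these intervals overlapped. A difference between broad and shorter peaks was not tested. The darkest class held 3 broad peaks, all in 16q21. Within 3 Mb of a chromosome end lay 83 broad peaks (19.5%) and 14.9% of shorter ones.

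At the 427 genes with a measured TSS, broad peaks were scarce. Of these genes, 176 had any peak within 2 kb and 5 had a broad one. Put the other way, 5 of 425 broad peaks (1.18%, 0.504 to 2.72%) and 202 of 19647 shorter ones (1.03%, 0.896 to 1.18%) lay at a sampled TSS, and the intervals overlap. With the TSSs moved by 100 kb to either side, 42 and 38 genes had any peak and 4 and 2 a broad one, so the count of 5 is hardly above those at moved positions. ADAM8, a membrane metalloprotease of leukocytes, had the longest of these, 8586 bp at chromosome 10, 135086009 to 135094595, with a mean of 29.6. It reached 4223 bp upstream and 4363 bp downstream of the TSS. FKBP5, a co-chaperone of steroid receptors, had 7590 bp at chromosome 6, 35693161 to 35700751, with a mean of 15.6. DYNLT4, a dynein light chain gene, had 6439 bp at chromosome 1, 45269375 to 45275814, with a mean of 16.6. GAPDH, the glycolytic enzyme, had 4525 bp at chromosome 12, 6641189 to 6645714, with a mean of 14.6. These 4 spanned their TSS with at least 2032 bp on either side. The peak of RELT, a receptor of the TNF receptor family, at chromosome 11, 73089147 to 73094313, lay beside its TSS and was low, with a mean of 5.70. On chromosome X, the only one with CpG islands at hand, 4 of 5 broad peaks and 185 of 374 shorter ones (49.5%) overlapped an island, and a longer peak has more chance to do so.

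The bands of listed genes give a coarser view, since a band holds many genes. Of 18752 protein-coding genes in the bands used, 7746 (41.3%) lay in a band with a broad peak. For the myeloid and hematopoietic transcription factors it was 13 of 29 (44.8%), for primary granule and calprotectin genes 5 of 10, and for the NADPH oxidase 4 of 6. For retinoid receptors and metabolism it was 5 of 15, for cell cycle and survival 3 of 8, for NF-kappaB and cytokine response 5 of 10 and for housekeeping genes 5 of 10. Among cell type markers, it was 5 of 6 for promyelocytes, 5 of 6 for T and B lymphocytes, 0 of 1 for erythroid cells, 1 of 5 for neurons and 2 of 4 for hepatocytes. The bands used left out 19p13.2, which had the most broad peaks, 23, because its length differed by over 10% between builds. CDKN2D, a listed cell cycle gene in 19p13.2, was therefore not counted. Genes of a list can share a band, as AZU1, PRTN3 and ELANE do in 19p13.3 and CD3D and CD3E in 11q23.3. The counts are therefore not independent. Bands of CEBPA, RUNX1 and GATA2 held no broad peak. Promyelocyte markers thus did not stand above lymphocyte markers at this resolution, and sharing a band assigns no peak to a gene.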

How the data were processed

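CUT&Tag with a PML-RARA antibody was done in 2 replicates of NB4 cells, per the labels' protocols, which do not say whether they came from separate cultures. Trimmomatic, Bowtie2, SAMtools, bedtools and SEACR, and the build hg19, are listed per the submitters' processing notes. For versions, SEACR threshold, control track, scaling to depth and way of merging, the status is: not given in the sources used here. Each peak of the deposited list has 2 signal columns. The column headed width is read as total signal and the one headed peak as maximum signal, since over the 20085 rows the former was always above the length and never above length times maximum. These signal values are the authors' own and were used only to describe, rank and filter peaks within this list.

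Length is end minus start, and a neighbour's gap runs from edge to edge. Peaks were placed in hg19 bands (circlize 0.4.16) by midpoint. The 427 sampled genes came from pyranges 0.1.4 and GenomicFeatures 1.54.1, which are software examples, not random draws. Genes were placed in GRCh38 bands and matched by band name; bands whose length differed by over 10% between builds were left out there. Promoters and miRNAs are from RefSeq (GRCh38.p14). Members and lists were chosen with earlier results of these data known. The loci named are the 10 longest, 10 highest and other extreme broad peaks by fixed ranks, the genes with a sampled TSS within 2 kb, and listed or other known genes at a broad peak. No test was run: alternatives to length limit, joining, chromosome, maximum, neighbour distance, band class and TSS window are in the closing section. The code was tested on simulated data.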

Additional observations from a re-analysis of the deposited data

Results flagged for a closer look

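Outside chromosomes 1 to 22 and X the list held 13 peaks on 6 contigs, and 2 of them were 4 kb or longer, which is a signal in data that the comparisons above leave out. No control sample was there to set them against. Both lay on the unplaced contig chrUn_gl000220, at 119442 to 138428 (18986 bp, total signal 290974, maximum 96, mean 15.3) and at 138663 to 143534 (4871 bp, total 79912, maximum 63, mean 16.4). The former is longer than every broad peak on the chromosomes except the one at PRAM1. On the same contig, at 117307 to 119219, a peak of 1912 bp had a maximum of 1005, above the highest maximum of the broad peaks, 830.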

How the results depend on the processing

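For 8 values 45 alternatives were run. The shares of bases and of signal have so narrow an interval, with single bases and signal units as its n, that any alternative falls outside it, so how many alternatives moved a value is no measure of stability. A limit of 3000 bp gave 871 broad peaks with 16.8% of covered bases, 26.0% of signal, a median mean of 14.9, a median maximum of 80 and 91.3% with a neighbour within 10 kb; a limit of 5000 bp gave 245, 6.99%, 12.2%, 17.9 and 96.3% (without the maximum, which stayed within its interval). Joining gaps of up to 500 bp gave 639, 16.5%, 24.1%, 14.04, a maximum of 85 and 90.6%. Without chromosome 19 the shares of bases and signal were 9.92% and 16.1%, and among peaks with a maximum at or above the median of all, 22, they were 15.8% and 20.7%, with 80.8% having a neighbour. The share with a neighbour was 89.6% within 5 kb and 99.5% within 50 kb. Giemsa-negative bands alone held 74.4% of broad peaks (70.0 to 78.3%) and 69.9% of shorter ones (69.2 to 70.5%), with overlapping intervals. Under each alternative length limit, joining, chromosome, maximum and neighbour distance above, the share with a neighbour was higher in broad than in shorter peaks. No paired analysis was possible because the list is merged from both replicates, and leaving out a replicate was not possible for the same reason. Depth is unknown, so no limit from it can be given.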
